A study of Mus musculus with 6 samples.

Results

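Cytochromes P450 of families 1 to 3 were compared between the livers of CT and LERKO mice. The members are all genes whose symbol is Cyp, then 1, 2 or 3, then a letter, and that have a probe set paired with 1 gene in the annotation of the array. There were 55 such genes in 17 subfamilies, of 18820 genes with a single-gene probe set. Liver RNA of 3 CT and 3 LERKO females of the C57BL/6J background was hybridised to Affymetrix Mouse Gene 1.1 ST arrays, 1 for each animal. CT mice were ERα fl/fl animals without a cre transgene. LERKO mice were Alb-cre/ERα fl/fl, so both groups carry floxed ERα alleles, and an effect of cre cannot be told apart from one of ERα loss. Cre was driven by the albumin promoter, which is active in hepatocytes, so ERα of other liver cells is not targeted. Age and diet of these 6 animals are not given in the sources used here, and food was freely available in the colony. The deposited values are RMA signals on the log2 scale, and all differences below are log2 signal in LERKO minus CT.

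Cytochromes P450 of families 1 to 3 are heme enzymes of the endoplasmic reticulum that insert an oxygen atom into drugs, pollutants, steroids and fatty acids. They receive electrons from P450 oxidoreductase and cytochrome b5. Foreign compounds induce them through receptors of the hepatocyte: the aryl hydrocarbon receptor (AhR) acts on family 1, and the constitutive androstane receptor (CAR) and the pregnane X receptor (PXR) act on subfamilies 2b, 2c and 3a. Mouse liver also sets several members by sex through the pattern of growth hormone release, and estrogens are known to act on that pattern. Many members are expressed most in hepatocytes around the central vein.

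Of the 55 members, 36 reached a signal of 100 (6.64 on the log2 scale) in at least 1 array and entered the test, and 19 lay below it in all 6 arrays. The signal reached 100 in all arrays for 32 of the 36, in 4 arrays for Cyp2d9, Cyp2j9 and Cyp3a16, and in CT replicate 2 alone for Cyp2u1. None of the 36 passed an adjusted p of 0.05 in limma, and 0 of the 10633 probe sets tested (0%) did. At an unadjusted p under 0.05 there were 4 members, Cyp3a16 and Cyp2a22 with a higher and Cyp2r1 and Cyp2j9 with a lower mean in LERKO. These were 11.1% of 36, beside 6.98% of all probe sets, of which 2.98% were higher and 4.0% lower in LERKO. A difference of at least 0.5 was seen in 6 members (16.7%), 3 in each direction, beside 2.63% of all probe sets (0.987% higher and 1.65% lower). Among the lower members was Cyp2u1, which entered the test only through the CT mouse in which it was high. CT and LERKO were fully separated in 8 members (22.2%), 6 of them higher and 2 lower in LERKO, beside 13.0% of all probe sets (5.91% higher and 7.13% lower). The mean difference was above 0 in 24 members (66.7%), beside 46.5% of all probe sets. The median difference was 0.07 over the members and −0.01 over all probe sets. The members also varied more within a group, with a median SD of 0.173 beside 0.123.

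The check of the genotype and of the tissue came first. Esr1, the gene of ERα, had signals of 8.45, 8.78 and 8.29 in CT and of 6.75, 7.06 and 6.77 in LERKO (adjusted p = 0.149 from limma). The study, with limma and a false discovery rate of 5%, counted Esr1 among its changed genes, a call that was not reached here. The mean over 13 genes of proteins that hepatocytes secrete, such as albumin, lay between 12.77 and 12.89 in all mice. In CT replicate 3 the mean over 8 genes of the exocrine pancreas was 7.38, beside 3.71 to 3.88 in the other mice, and that over 7 muscle genes was 6.25, beside 3.62 to 4.83. In the same array the mean over 5 keratins of squamous epithelium was 6.79, beside 3.60 to 3.90. In LERKO replicate 2 the mean over 6 genes of the adrenal cortex was 8.95, beside 3.40 to 3.80. Markers of kidney and lung, organs that also express members, lay below a signal of 100 in all 6 arrays (0 of 7 and 0 of 5 genes reached it). For the members with the largest differences, values without CT replicate 3 and LERKO replicate 2 stand beside the result. RNA was taken from whole liver, so fewer cells of a type and less RNA per cell cannot be told apart.

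**Figure D1:**
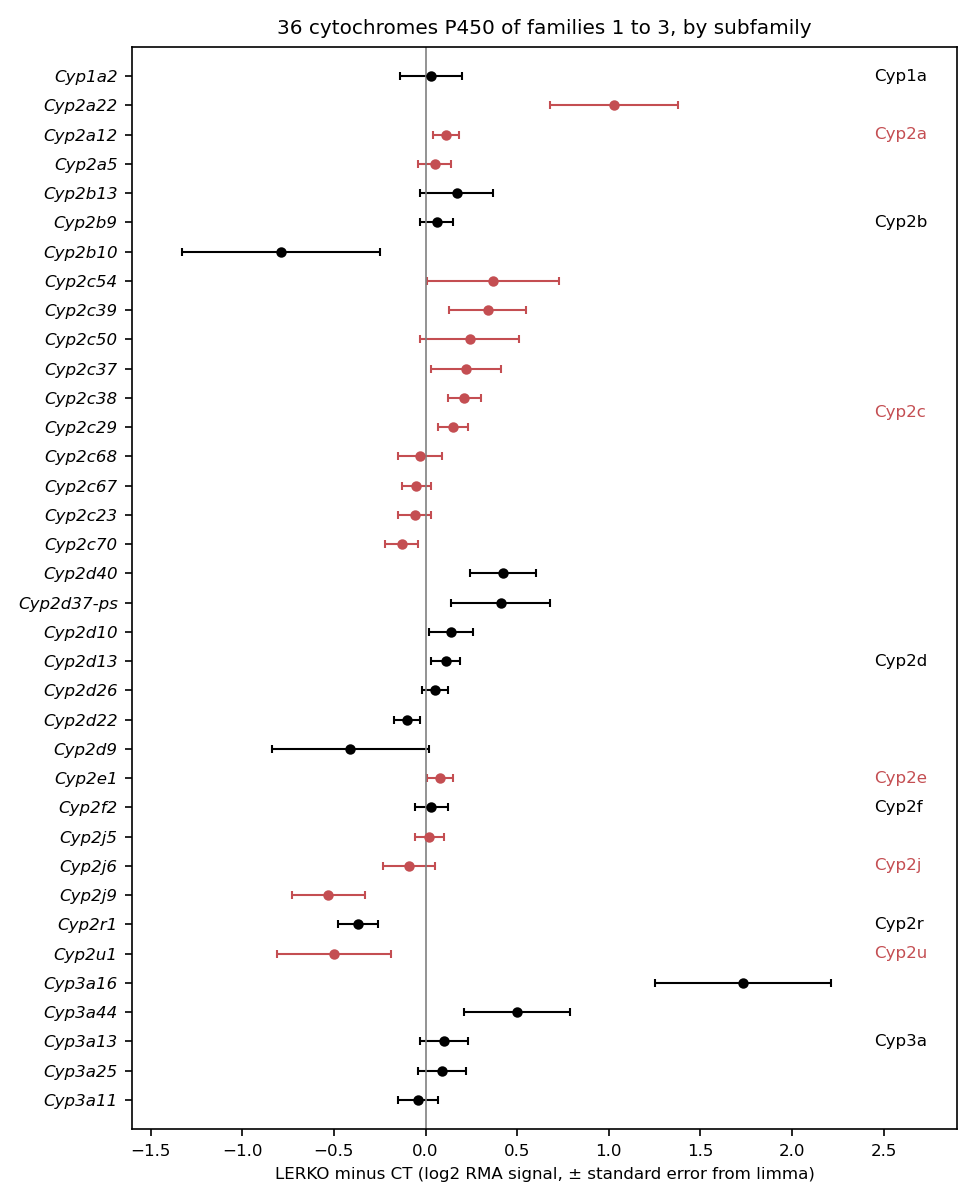
Difference in log2 RMA signal between LERKO and CT liver for the 36 cytochromes P450 tested, grouped by subfamily (colour alternates between subfamilies), with standard errors from limma (n = 3 mice a group). Cyp3a16 at 1.73 and Cyp2a22 at 1.03 lie farthest above 0 and Cyp2b10 at −0.79 farthest below.

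The sequence before the start of transcription is shown for members of subfamilies 3a and 2a, where related genes had fitted differences of unlike size, and for Cyp2r1. Whether the genes differ from each other in their change was not tested. The windows are the 250 bases before a start site given by RefSeq on GRCm38.p6, written from 5′ to 3′ in the direction of the gene. They lie at chr5:145469724-145469973, minus strand, for Cyp3a16, at chr5:145805875-145806124, minus strand, for Cyp3a44, and at chr5:145879855-145880104, minus strand, for Cyp3a11. Capitals mark AGGTCA, the half-site of nuclear receptors such as PXR and CAR, and the letters of Cyp3a16 that align with it. They also mark the letters TATAAA, which began 126 bases before the start in Cyp3a16, 122 in Cyp3a44 and 234 in Cyp3a11.
Cyp3a16: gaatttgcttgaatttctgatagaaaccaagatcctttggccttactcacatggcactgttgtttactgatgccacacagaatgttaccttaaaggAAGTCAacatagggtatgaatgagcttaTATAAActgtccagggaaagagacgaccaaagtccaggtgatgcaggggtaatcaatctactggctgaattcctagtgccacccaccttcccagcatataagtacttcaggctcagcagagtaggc
Cyp3a44: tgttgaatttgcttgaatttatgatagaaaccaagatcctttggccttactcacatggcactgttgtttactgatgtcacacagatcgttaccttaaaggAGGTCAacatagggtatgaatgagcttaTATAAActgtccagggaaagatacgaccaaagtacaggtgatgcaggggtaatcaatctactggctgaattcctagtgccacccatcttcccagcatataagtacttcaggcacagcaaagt
Cyp3a11: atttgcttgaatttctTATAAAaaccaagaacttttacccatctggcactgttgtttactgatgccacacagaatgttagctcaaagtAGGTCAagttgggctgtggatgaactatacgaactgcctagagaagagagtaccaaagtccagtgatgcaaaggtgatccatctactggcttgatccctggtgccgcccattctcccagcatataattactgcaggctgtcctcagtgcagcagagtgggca
The Cyp3a16 and Cyp3a44 windows were identical at 92.9% of aligned positions, while Cyp3a11 was identical to Cyp3a16 at 76.6% and to Cyp3a44 at 72.5%. AGGTCA began 150 bases before the start in Cyp3a44 and 162 bases before it in Cyp3a11. In Cyp3a16 the letters aligned with the half-site of Cyp3a44 were AAGTCA, which differ by the substitution G2A, counted from 1 at the 5′ end of the half-site. The window of Cyp3a16 thus held no AGGTCA on either strand, which is a description of these letters only.

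The windows of subfamily 2a lie at chr7:26939387-26939636, minus strand, for Cyp2a22, and at chr7:27028840-27029089, plus strand, for its neighbour Cyp2a12, and that of Cyp2r1 lies at chr7:114562973-114563222, minus strand. Capitals mark TATAAA.
Cyp2a22: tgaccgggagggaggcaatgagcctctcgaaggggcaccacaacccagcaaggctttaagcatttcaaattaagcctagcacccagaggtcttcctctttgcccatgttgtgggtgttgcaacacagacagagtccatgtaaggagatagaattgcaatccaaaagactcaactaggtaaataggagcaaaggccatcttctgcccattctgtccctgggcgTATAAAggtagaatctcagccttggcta
Cyp2a12: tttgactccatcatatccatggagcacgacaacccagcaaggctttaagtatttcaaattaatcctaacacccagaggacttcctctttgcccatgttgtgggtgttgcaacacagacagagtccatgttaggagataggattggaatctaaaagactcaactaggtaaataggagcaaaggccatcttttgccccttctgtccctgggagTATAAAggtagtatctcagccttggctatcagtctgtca
Cyp2r1: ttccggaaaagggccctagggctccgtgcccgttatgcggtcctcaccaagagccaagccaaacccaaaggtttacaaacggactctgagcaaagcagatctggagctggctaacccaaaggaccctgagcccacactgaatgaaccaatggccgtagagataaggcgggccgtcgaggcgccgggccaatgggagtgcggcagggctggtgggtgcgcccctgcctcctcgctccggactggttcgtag
Cyp2a22 and Cyp2a12 were identical at 82.5% of aligned positions, and both held TATAAA, which began 28 and 39 bases before the start. The window of Cyp2r1 held none, and its share of G and C was 61.6%, beside 49.2% for Cyp2a22. RefSeq windows were found for 46 of the 55 members, 49 windows in all, and both strands of each were searched. TATAAA was found in 22 of the 49 (44.9%), beside 12.4% of the 32851 windows of all genes, and AGGTCA in 15 (30.6%), beside 14.0%. GCGTG, the core to which AhR binds, was in 10 (20.4%), beside 28.2% of all windows. TTCNNNGAA, the site of STAT5, which relays the growth hormone signal, was in 2 (4.08%), beside 7.02%. The estrogen response element, GGTCA and TGACC with any 3 bases between them, was in 0 of the 49, beside 0.0639% of all windows.

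Subfamily 3a holds Cyp3a16, the member with the largest difference of the 36 tested. Cyp3a11, the main Cyp3a enzyme of adult mouse liver and a PXR target, had signals of 12.19, 12.15 and 12.21 in CT and of 12.24, 12.27 and 11.92 in LERKO. The groups overlapped, and the 95% confidence interval of the difference from limma ran from −0.30 to 0.22. Cyp3a16, known from fetal and newborn liver and from adult females, had 6.03, 6.09 and 6.74 in CT and 7.71, 7.24 and 9.11 in LERKO. The lowest LERKO mouse thus lay 0.501 above the highest CT mouse, and the LERKO mice were spread over a wider range than the CT mice. The mean was 6.29 ± 0.39 (SD, n = 3) in CT, below a signal of 100, and 8.02 ± 0.97 (SD, n = 3) in LERKO. The difference was 1.73 or 3.33-fold (95% confidence interval 0.59 to 2.88; adjusted p = 0.703 from limma). The exact two-sided permutation test gave p = 0.10, the smallest that 3 mice against 3 allow. With 1 array left out the difference ranged from 1.19 without LERKO replicate 3 to 2.13 without LERKO replicate 2, and it was 2.35 without both CT replicate 3 and LERKO replicate 2.

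Cyp3a44, a female-biased member 92.9% identical to Cyp3a16 in the window above, had signals of 9.26, 8.71 and 9.84 in CT and of 9.68, 9.53 and 10.10 in LERKO. The groups overlapped through CT replicate 3, and LERKO replicate 3 was the highest array for both Cyp3a16 and Cyp3a44. The difference was 0.50 (standard error 0.29; adjusted p = 0.758 from limma), and with 1 array left out it ranged from 0.22 without CT replicate 2 to 0.79 without CT replicate 3. Without both CT replicate 3 and LERKO replicate 2 it was 0.91 (adjusted p = 0.387 from limma). Cyp3a13 and Cyp3a25 had differences of 0.10 (95% confidence interval −0.21 to 0.42) and 0.09 (−0.22 to 0.41). Cyp3a57, which lies beside Cyp3a16 in the RefSeq order of genes, was below a signal of 100 in all arrays, at 2.32 to 2.89. Members of this subfamily have close copies, and the probe sequences were not analysed here, so the signal of a probe set may include that of a related gene.

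**Figure D2:**
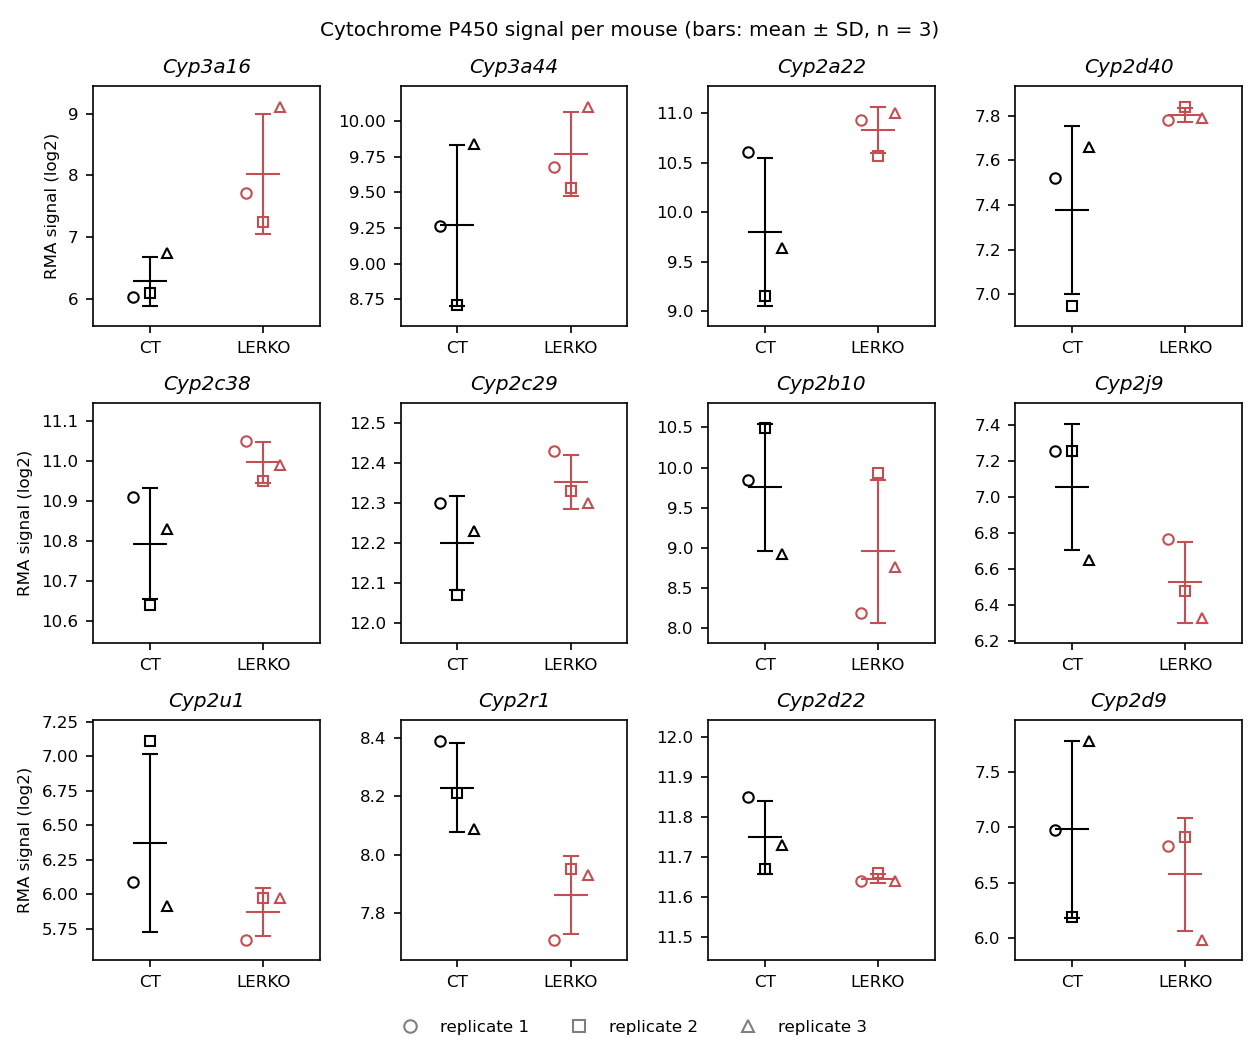
RMA signal (log2) of 12 members in each mouse, 1 point per mouse with the symbol giving the replicate, with mean and SD per genotype (n = 3); each panel has its own axis. For Cyp3a16, Cyp2d40, Cyp2c38 and Cyp2c29 LERKO lies wholly above CT, for Cyp2r1 and Cyp2d22 wholly below, and for the other 6 the groups overlap.

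In subfamily 2a, Cyp2a22 differed more than its neighbours. Cyp2a22 had signals of 10.61, 9.15 and 9.64 in CT and of 10.93, 10.57 and 11.00 in LERKO. CT replicate 1 lay within the range of the LERKO mice, and the other CT mice lay below all of them. The difference was 1.03 or 2.05-fold (95% confidence interval 0.19 to 1.88; adjusted p = 0.703 from limma), with 0.71 without CT replicate 2, 1.44 without CT replicate 1 and 1.08 without both CT replicate 3 and LERKO replicate 2. Cyp2a12, a steroid hydroxylase, had 11.83, 11.87 and 11.72 in CT and 11.98, 11.88 and 11.89 in LERKO. The groups did not overlap, by a gap of 0.00878, and the difference was 0.11 (95% confidence interval −0.07 to 0.28). Cyp2a5, which hydroxylates coumarin and nicotine, had a difference of 0.05 (95% confidence interval −0.16 to 0.25).

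Subfamily 2b holds the classical target of CAR and a pair of female-biased genes. Cyp2b10, which phenobarbital induces through CAR, had signals of 9.85, 10.49 and 8.92 in CT and of 8.19, 9.93 and 8.76 in LERKO. The mice of both groups ranged over more than 1 log2 unit and overlapped, with CT replicate 2 highest and LERKO replicate 1 lowest. The difference was −0.79 (standard error 0.54; adjusted p = 0.785 from limma), with −1.28 without LERKO replicate 2, −0.41 without LERKO replicate 1 and −1.69 without both CT replicate 3 and LERKO replicate 2. Cyp2b9 had 12.71, 12.90 and 12.61 in CT and 12.82, 12.80 and 12.79 in LERKO, so that the LERKO mice lay inside the range of the CT mice. Cyp2b13 had a difference of 0.17 (95% confidence interval −0.30 to 0.64) with overlapping groups. Cyp2b19 and Cyp2b23 were below a signal of 100 in all arrays, at 3.39 to 4.50.

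Subfamily 2c has 13 members, of which 10 were tested, 6 with a difference above 0 and 4 below. Their median difference was 0.18, within a range of −0.13 for Cyp2c70 to 0.37 for Cyp2c54. Cyp2c29, which CAR induces, had signals of 12.30, 12.07 and 12.23 in CT and of 12.43, 12.33 and 12.30 in LERKO. Cyp2c38 had 10.91, 10.64 and 10.83 in CT and 11.05, 10.95 and 10.99 in LERKO. In both genes LERKO lay wholly above CT, by gaps of 0.00694 and 0.0465, with differences of 0.15 (standard error 0.08; adjusted p = 0.747) and 0.21 (standard error 0.09; adjusted p = 0.703) in limma.

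Cyp2c37, Cyp2c50 and Cyp2c54, which act on arachidonic acid and follow each other in the RefSeq order of genes, were each lowest in CT replicate 2. Cyp2c54 had 10.81, 9.45 and 10.70 in CT and 10.90, 10.69 and 10.48 in LERKO. Cyp2c50 had 11.15, 10.09 and 10.95 in CT and 11.05, 11.04 and 10.80 in LERKO. Cyp2c37 had 12.30, 11.58 and 12.10 in CT and 12.34, 12.06 and 12.22 in LERKO. Apart from CT replicate 2, the ranges of the groups overlapped in all 3 genes. The differences of 0.37, 0.24 and 0.22 became −0.07, −0.09 and 0.01 without that array, while that of Cyp2c54 was 0.56 without both CT replicate 3 and LERKO replicate 2. Cyp2c39 had a difference of 0.34, and 0.13 without CT replicate 2. Cyp2c70, which makes the muricholic acids of mouse bile, had a difference of −0.13 (95% confidence interval −0.34 to 0.07). Cyp2c23, Cyp2c67 and Cyp2c68 lay between −0.06 and −0.03.

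Of the 10 members of subfamily 2d, 7 were tested, with a median difference of 0.11. Cyp2d40 had signals of 7.52, 6.95 and 7.66 in CT and of 7.78, 7.84 and 7.79 in LERKO. The LERKO mice lay close together and above all CT mice by 0.116, with a difference of 0.42 (standard error 0.18; adjusted p = 0.703 from limma) that was 0.21 without CT replicate 2 and 0.55 without both CT replicate 3 and LERKO replicate 2. Cyp2d37-ps, a transcribed pseudogene, had 8.39, 9.16 and 9.23 in CT and 9.55, 8.94 and 9.51 in LERKO, with a difference of 0.41. That difference was 0.14 without CT replicate 1, 0.60 without LERKO replicate 2 and 0.76 without both LERKO replicate 2 and CT replicate 3. Cyp2d22 had 11.85, 11.67 and 11.73 in CT and 11.64, 11.66 and 11.64 in LERKO, a difference of −0.10 with a gap of 0.00959 between the groups. Cyp2d10, Cyp2d13 and Cyp2d26 had differences of 0.14, 0.11 and 0.05 with overlapping groups, and Cyp2d13 is also a transcribed pseudogene.

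Cyp2d9, a testosterone hydroxylase that is higher in male liver, had signals of 6.98, 6.19 and 7.78 in CT and of 6.83, 6.91 and 5.99 in LERKO. CT replicate 3 was the highest and LERKO replicate 3 the lowest mouse. The difference was −0.41 (standard error 0.43; adjusted p = 0.845 from limma) with −0.01 without CT replicate 3 and −0.17 without both CT replicate 3 and LERKO replicate 2. The mean over 8 male-biased genes outside these families was 7.47 in CT replicate 3 and 5.27 to 6.00 in the other mice, and 6 of the 8 reached a signal of 100 there, beside 2 or 3 elsewhere. The 3 Y-linked genes measured lay below a signal of 100 in all arrays. The part of these genes, and of the pancreas, muscle and squamous genes of the same array, in the Cyp2d9 result was not tested.

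Of 12 members listed as female-biased, 7 had a single-gene probe set and all were tested. Their differences were above 0 in 5, with a median of 0.17, from −0.79 for Cyp2b10 to 1.73 for Cyp3a16, and 0 passed the adjusted threshold. Of 5 female-biased genes outside these families, 4 were above 0, with a median of 0.24. Cyp17a1, an enzyme of steroid synthesis, had signals of 11.90, 11.92 and 11.87 in CT and of 12.08, 12.06 and 12.25 in LERKO, so that the groups did not overlap. Cux2, a female-biased transcriptional repressor, had a difference of 0.53 and Sult3a1, a sulfotransferase, 0.44, both with overlapping groups. Of 6 male-biased genes tested, 2 were above 0 and 4 below, with a median of −0.36. The largest difference of this list was that of Elovl3, at 0.92 with overlapping groups. Its signals were 6.34, 4.06 and 6.83 in CT and 6.60, 6.41 and 6.97 in LERKO. Next came Cyp4a12a, Cyp4a12b and Slco1a1, with differences of −0.77, −0.72 and −0.59. These 3 genes reached a signal of 100 in 1 array, CT replicate 3, at 8.17, 8.31 and 8.03. They thus entered the test only through a CT mouse that also carried genes of other organs. The part of that array in the median was not tested.

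The remaining subfamilies hold 1 to 6 members each. Cyp2r1, which hydroxylates vitamin D in the liver, had signals of 8.39, 8.21 and 8.09 in CT and of 7.71, 7.95 and 7.93 in LERKO. The highest LERKO mouse lay 0.139 below the lowest CT mouse. The difference was −0.37 (95% confidence interval −0.63 to −0.11; adjusted p = 0.703 from limma), with −0.44 to −0.29 when 1 array was left out and −0.49 without both CT replicate 3 and LERKO replicate 2, and the exact permutation test gave p = 0.10. Cyp2j9 had 7.26, 7.26 and 6.65 in CT and 6.77, 6.48 and 6.33 in LERKO. CT replicate 3 lay among the LERKO mice, and the difference was −0.53 (standard error 0.20; adjusted p = 0.703 from limma), with −0.73 without CT replicate 3 and −0.71 without LERKO replicate 2 as well. Its neighbours Cyp2j6 and Cyp2j5, the latter an epoxygenase of arachidonic acid, had −0.09 and 0.02 with overlapping groups. For Cyp2a22 and Cyp2j9, which also had an unadjusted p under 0.05 in limma, the exact permutation test gave p = 0.2. For Cyp2b10, Cyp2u1 and Cyp3a44, with a difference of at least 0.5, the exact permutation test gave p = 0.3.

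Cyp2u1, which hydroxylates long-chain fatty acids, had signals of 6.09, 7.11 and 5.91 in CT and of 5.67, 5.97 and 5.97 in LERKO. CT replicate 2 stood apart from the other mice, which lay below a signal of 100. Without that array the gene was not tested, and its difference over all mice was −0.50 (standard error 0.31; adjusted p = 0.765 from limma), with −0.78 without both CT replicate 3 and LERKO replicate 2. Cyp2e1, which oxidises ethanol and paracetamol, had 13.14, 13.04 and 13.17 in CT and 13.20, 13.20 and 13.17 in LERKO, with a gap of 0.00663 between the groups and a difference of 0.08 (95% confidence interval −0.08 to 0.24). Cyp2f2, an enzyme of naphthalene metabolism that marks hepatocytes around the portal vein, had a difference of 0.03 (95% confidence interval −0.18 to 0.23).

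In family 1, Cyp1a2, which metabolises caffeine and arylamines and is an AhR target, had signals of 12.41, 11.73 and 12.19 in CT and of 12.08, 12.25 and 12.08 in LERKO. The groups overlapped, with a difference of 0.03 (95% confidence interval −0.39 to 0.44), which was −0.16 without CT replicate 2 and 0.18 without CT replicate 1. Cyp1a1 and Cyp1b1, AhR targets of low level in liver that has met no inducer, lay below a signal of 100 in all mice, at 3.29 to 3.93 and 3.11 to 3.50. Of the other members below that signal, Cyp2c55, which CAR and PXR induce, had 5.55, 5.95 and 5.38 in CT and 4.78, 5.36 and 4.53 in LERKO. Its groups did not overlap, by a gap of 0.0166, and it was below the signal at which probe sets were tested. Cyp2s1, known from epithelia outside the liver, was at 6.21 in CT replicate 3, which carried genes of other organs, and at 4.90 to 5.33 in the other mice. The other members below the signal, from subfamilies 2ab, 2b, 2c, 2d, 2g, 2j, 2t, 2w and 3a, lay between 1.71 and 5.16. Among these, Cyp2w1 with a higher and Cyp2t4 with a lower mean in LERKO were also separate, by 0.058 and 0.044, far below the signal tested.

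**Figure D3:**
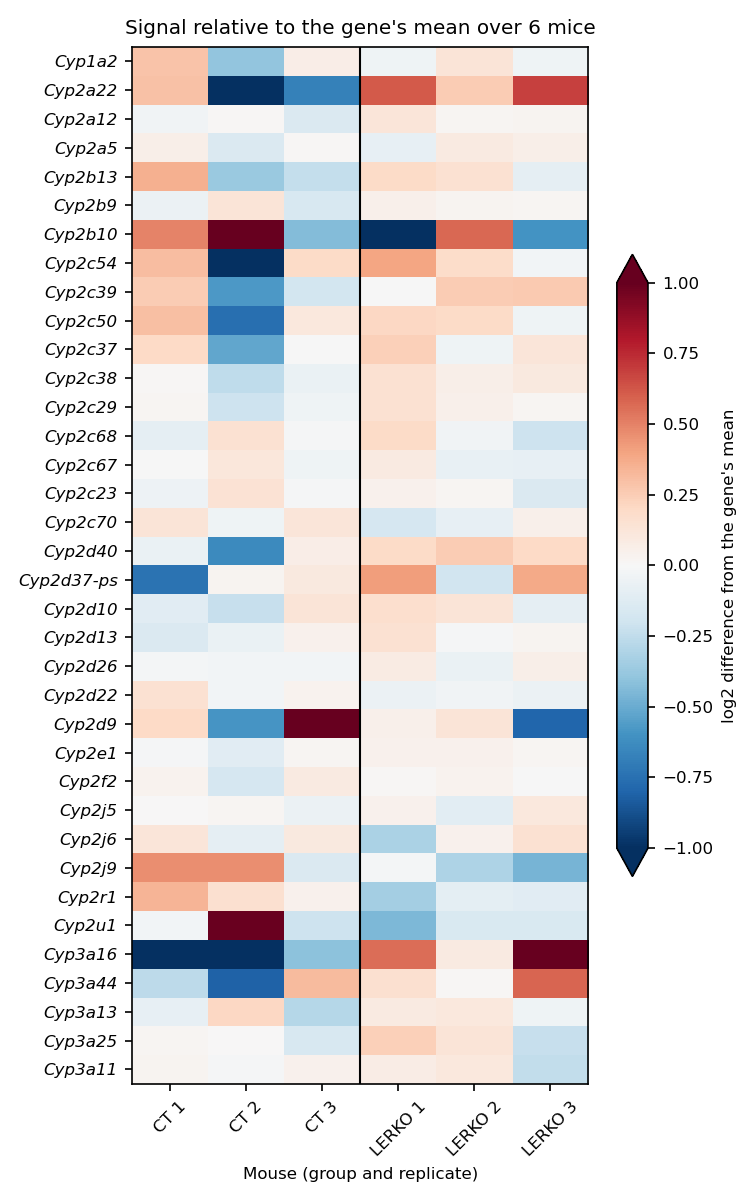
Log2 RMA signal of the 36 members tested relative to each gene's mean over the 6 mice, 1 column per mouse and 1 row per gene, ordered by subfamily; colours are bounded at −1 and 1. CT replicate 2 is the lowest mouse in 15 of the 36 genes and LERKO replicate 1 the highest in 12.

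The members varied between single mice as much as between the groups. CT replicate 2 was the lowest mouse in 15 of the 36 members (41.7%), beside 16.4% of all probe sets, and in 7 of them, Cyp1a2, Cyp2c37, Cyp2c50, Cyp2c54, Cyp2d40, Cyp2e1 and Cyp2f2, it lay below the nearest mouse by more than the range of the other 5. The same mouse was highest in 6 members (16.7%), beside 28.3% of all probe sets, among them Cyp2b10, Cyp2b9 and Cyp2u1. LERKO replicate 1 was highest in 12 members (33.3%), beside 13.6% of all probe sets. The mean over 9 genes of hepatocytes around the central vein, none of them a P450, was 8.50 in CT replicate 2 and 8.92 to 9.29 in the other mice. Among these genes, Glul (glutamine synthetase) was at 11.74 in CT replicate 2 and at 12.33 to 12.58 elsewhere. Over 6 genes of hepatocytes around the portal vein the mean was 12.07 in that mouse and 11.71 to 11.92 in the others. Cyp2f2, which also marks hepatocytes around the portal vein, was at 12.49 in that mouse and at 12.65 to 12.75 elsewhere. Of the 9 central genes 7 were tested, all with a difference above 0 and overlapping groups, with a median of 0.29. Of the 6 portal genes 3 were above and 3 below 0, with a median of 0.01. The part of the genes of both lists in the low P450 signals of CT replicate 2 was not tested. Without CT replicate 2, 3 members (Cyp3a16, Cyp2d40 and Cyp2r1) of the 35 tested had an unadjusted p under 0.05 (8.57%), beside 6.26% of all probe sets in that fit, and the median difference was 0.03.

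**Figure D4:**
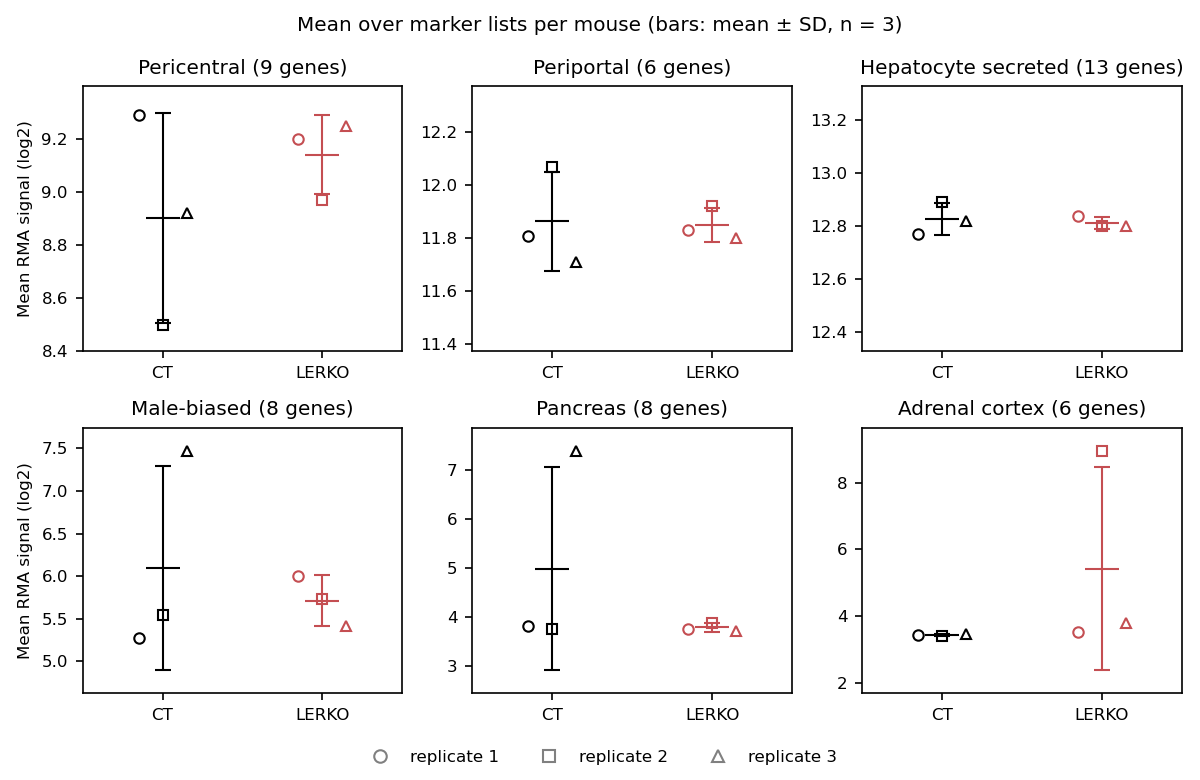
Mean log2 RMA signal over 6 marker lists in each mouse, 1 point per mouse with the symbol giving the replicate, with mean and SD per genotype (n = 3); each panel has its own axis. CT replicate 2 is lowest for the pericentral genes at 8.50, CT replicate 3 highest for the male-biased and pancreas genes at 7.47 and 7.38, and LERKO replicate 2 highest for the adrenal genes at 8.95.

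Genes that serve or control these enzymes also lay on both sides of 0. Of 5 redox partners tested, 3 were above and 2 below 0, with a median of 0.01. Por, the gene of P450 oxidoreductase, had no single-gene probe set and is not among them. Cyb5r3, the reductase of cytochrome b5, had signals of 12.50, 12.42 and 12.42 in CT and of 12.16, 12.28 and 12.30 in LERKO, without overlap, with a difference of −0.20 (standard error 0.07; adjusted p = 0.703 from limma). Cyb5a, cytochrome b5 itself, had a difference of 0.06, and Pgrmc1, a heme-binding partner of P450s, 0.07, both without overlap. The gaps were small: CT replicate 1 and LERKO replicate 2 both round to 12.55 for Cyb5a, and were at 12.38 and 12.39 for Pgrmc1. Of 17 receptors and regulators tested, 7 were above and 10 below 0, with a median of −0.02. The largest differences were those of Bcl6 at 1.01, Onecut1 at −0.60, Nr0b2 at 0.54 and Cux2 at 0.53, all with overlapping groups. Ahr, the gene of AhR, had 9.05, 8.77 and 9.31 in CT and 9.67, 9.31 and 9.68 in LERKO, a difference of 0.51 (standard error 0.16; adjusted p = 0.703 from limma), and is named after its value was seen. Nr3c1, the glucocorticoid receptor, had 8.16, 8.06 and 8.08 in CT and 7.93, 7.89 and 7.89 in LERKO, and is also named after its value was seen. Nr1i2, the gene of PXR, had a difference of −0.06, and Rxra, the partner of PXR and CAR, 0.02. Nr1i3, the gene of CAR, had no single-gene probe set and was not measured here.

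Known targets of these receptors outside the P450s showed small differences. Nqo1, an AhR target, had a difference of −0.04 and reached a signal of 100 in 1 array. Of 10 targets of CAR and PXR tested, 6 were above and 4 below 0, with a median of 0.04. The largest differences were 0.30 for Aldh1a1, a retinal dehydrogenase that was lowest in CT replicate 2 at 11.06, −0.22 for Ces2a, a carboxylesterase, −0.19 for Papss2, which makes the sulfate donor, and −0.18 for Gsta4, a glutathione transferase. For Ces2a the groups were separate, with 8.87, 9.04 and 8.85 in CT and 8.76, 8.85 and 8.48 in LERKO. The gap was too small to show in these digits, as CT replicate 3 and LERKO replicate 2 both round to 8.85. Over all probe sets, 13.0% had separate groups. Gstm1, a glutathione transferase named after its value was seen, was the other gene of the list with separate groups and a lower mean in LERKO, with a difference of −0.07. No gene of these sets was past the adjusted threshold in limma.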

How the data were processed

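Per the labels and the study's methods, the authors computed RMA (robust multichip average) values from 6 Affymetrix Mouse Gene 1.1 ST arrays, 1 per mouse, in the oligo package (version not given in the sources used here). The deposited log2 values are background-corrected, quantile-normalized signals per probe set, and the deposited table holds 35556 probe sets. Quantile normalization assumes like distributions in all arrays. Following the study's methods, a probe set was kept if its signal reached 100 in at least 1 array, which left 10633. The contrast of LERKO with CT came from limma 3.58.1 (lmFit, eBayes; R 4.3.3) on genotype alone. Its two-sided p-values were adjusted by the Benjamini-Hochberg method across all 10633, and 0.05 was the threshold. The model was tested on simulated data. Genes were named from the platform annotation for the 21218 probe sets paired with 1 gene, and RefSeq held the gene identifier, and thus a current symbol, for 21185 of them. No gene was named from the 1881 probe sets with several genes. Where a gene had several probe sets, that with the highest mean over the 6 arrays was used. Per array, 9452 to 9865 probe sets had a signal of at least 100, and arrays correlated at 0.967 to 0.989. The number of arrays limits the precision. Members and lists were chosen with earlier results of these data known, and lists hold textbook genes of the pathway, of sex bias and of cell types. Named with full statistics are members with an unadjusted p under 0.05, with a difference of at least 0.5 or of textbook standing, and up to 4 genes of largest difference in each pathway list. Promoter windows came from RefSeq (GRCm38.p6) and were aligned globally with Biopython 1.88 (match 1, mismatch −1, gap opening −2, gap extension and end gaps −0.5). The labels name the animals of each group as biological replicates.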

Additional observations from a re-analysis of the deposited data

How the results depend on the processing

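Cytochrome P450 members called at an adjusted p of 0.05 numbered 0 under all 20 alternatives, with the lowest adjusted p of any member at 0.293 (Cyp2j9 without CT replicate 3). Adding the probe sets with several genes, and taking the mean of all probe sets of a gene, reused the main fit. The latter equals the main result, since no tested member had more than 1 probe set. Over all probe sets, 3 were called when a signal of 100 was required in all 6 arrays, 1 with an eBayes trend, and 0 to 1 with 1 array left out. Members with an unadjusted p under 0.05 numbered 4, with 2 to 6 when 1 array was left out. The lowest count was 2 without LERKO replicate 3 (5.56%, beside 4.88% of all probe sets in that fit). The highest was 6 without CT replicate 1 (16.7%, beside 6.12% of all probe sets in that fit). With both CT replicate 3 and LERKO replicate 2 left out there were 7 of these (19.4%, beside 10.8% of all probe sets) and 18 members whose groups did not overlap (50.0%, beside 44.1% of all probe sets). With 1 array left out, 10 to 13 members did not overlap (27.8% to 37.1%), beside 19.7% to 29.2% of all probe sets, since with fewer mice more genes separate by construction. The median difference of the members ranged from 0.03 to 0.10 over all alternatives. No paired reading was used: mice of the same replicate number deviated from their group means with correlations of −0.157, −0.0731 and −0.137. These values showed no pairing by number, but with 3 mice a group they cannot settle whether the mice were paired. With the replicate block 6 members (16.7%, beside 5.4% of all probe sets) had an unadjusted p under 0.05, and 0 of all probe sets passed the adjusted threshold. Centring the arrays on hepatocyte genes moved the median of all probe sets by 0.0259, and the other normalizations by less. The direction of 22 of the 36 members held under each alternative in which they were tested, with Cyp2u1 not tested without CT replicate 2 or with a signal of 100 required in at least 3 arrays, and Cyp2u1, Cyp2d9, Cyp2j9 and Cyp3a16 not tested with a signal of 100 required in all 6 arrays. The 14 others changed sign at least once, and of these all but Cyp2c54, at 0.37, had a difference within 0.25 of 0. Other signal filters, other eBayes settings and the replicate block leave the fitted difference unchanged by construction, so no direction could change there. With array weights Cyp1a2 was at −0.0906 and Cyp2b13 at −0.000559. Without both CT replicate 3 and LERKO replicate 2, Cyp2b9 was at −0.000479, Cyp3a13 at −0.0405 and Cyp3a25 at −0.00529. With 1 array left out, Cyp1a2 ranged from −0.164 to 0.176, Cyp2a5 from −0.0142 to 0.097, Cyp2c23 from −0.0958 to 0.00494, Cyp2c50 from −0.0854 to 0.445, Cyp2c54 from −0.0692 to 0.613, Cyp2c68 from −0.137 to 0.0589, Cyp2f2 from −0.047 to 0.0824, Cyp2j5 from −0.0218 to 0.0859, Cyp2j6 from −0.181 to 0.0528, Cyp3a11 from −0.105 to 0.0714, Cyp3a13 from −0.0135 to 0.232 and Cyp3a25 from −0.000914 to 0.232. The causes of the differences described here were not tested.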

Other observations

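Of 60 protein-coding genes of these families in RefSeq, 7 had no single-gene probe set, and 5 probe sets paired with several genes of the families were left unnamed. A pair of them, each paired with 4 genes of subfamily 3a, both had a difference of 0.38 with overlapping groups (adjusted p = 0.722 and 0.709 from limma). In the first, the signals were 11.67 in CT replicate 2 and 12.66 in LERKO replicate 3, the lowest and the highest mouse. The probe sets with several genes of subfamilies 2a and 2c had differences of 0.07 and −0.04, and that of 3 genes of subfamily 3a had 0.10.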
